A study of Mus musculus with 6 samples.

Results

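Fibroblast growth factor (FGF) ligands and receptors were compared between mouse embryonic stem cells (mESCs) and cardiac precursor cell cultures (CPCCs). The genes were chosen by symbol in the bulk RNA-seq count tables: 6 ligands (*Fgf2*, *Fgf4*, *Fgf7*, *Fgf10*, *Fgf15* and *Fgf17*) and the 4 signalling receptors (*Fgfr1* to *Fgfr4*), which makes 10 of the 16279 genes listed in either table. Both tables list 7 of the 10, the CPCC table alone lists *Fgf2* and *Fgf7*, and the mESC table alone lists *Fgfr4*. The mESCs were male F1 cells of the strain C57BL/6 x CAST/EiJ, from clones that each started from a single cell, cultured without feeder cells in serum with LIF and inhibitors of MEK and GSK3. The CPCCs were mixed cultures made from these clones through embryoid bodies exposed to ascorbic acid, then passaged in a medium with EGF and FGF2, and carry the same strain and sex labels. FGF2 protein was thus added to the CPCC medium and not to the mESC medium. Each group had 3 libraries, so cell type, medium and passage history cannot be told apart here.

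FGF ligands are mostly secreted proteins that bind receptor tyrosine kinases together with heparan sulfate chains on the cell surface, and the bound receptor passes the signal to RAS, RAF, MEK and ERK. In mouse ESCs, FGF4 made by the cells themselves drives ERK signalling and primes them to leave the naive state, and the MEK inhibitor in the mESC medium blocks that route below the receptor. In the embryo, FGF10 and FGF8-family ligands act in the heart-forming region, while FGF2 is a common additive for growing precursor cells.

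*Fgf4* has a well-known enhancer inside its own transcript, where SOX2 and the POU factor OCT4 (gene *Pou5f1*) sit side by side in stem cells. Its site is shown because *Fgf4* and the genes of both factors fell together in these data. In GENCODE vM21 it lies in exon 3 of 3, within the 3′ untranslated region, 1453 bases after the stop codon, at chr7:144864388-144864417 of GRCm38 on the plus strand. The capitals mark the SOX letters CTTTGTT and the POU letters ATGCTAAT, with 3 bases between them.

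Fgf4 site: aaaactCTTTGTTtggATGCTAATgggata

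The letters were taken from this site, so a match in *Fgf4* is given by construction. Letters of this length copied from a single site seldom recur elsewhere, so finding the pair in *Fgf4* alone was also to be foreseen. In the first 2302 bases of the 4348 mouse 3′ untranslated regions at least as long as that of *Fgf4*, searched on both strands, the SOX letters occurred in 48.9%, the POU letters in 8.74%, and the pair at this spacing in *Fgf4* alone (0.023%). The promoter of *Fgf4* is shown for the same reason, as the 250 bases before the RefSeq start of GRCm38.p6, chr7:144861136-144861385 on the plus strand. Capitals mark the GC box GGGCGG and the CCAAT box CCAAT on either strand.

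Fgf4 promoter: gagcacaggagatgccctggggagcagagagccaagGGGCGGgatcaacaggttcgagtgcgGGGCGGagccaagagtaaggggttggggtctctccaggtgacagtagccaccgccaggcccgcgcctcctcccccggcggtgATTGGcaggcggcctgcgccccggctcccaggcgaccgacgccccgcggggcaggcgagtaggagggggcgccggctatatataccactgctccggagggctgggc

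The *Fgf4* promoter held 2 GC boxes and 1 CCAAT box at a GC content of 71.2%, against a median of 52% over 27025 mouse genes, with 1 promoter each from the RefSeq table. A GC box occurred in 32.9% of those promoters and a CCAAT box in 34.5%. Of the 10 FGF genes, 7 had a promoter in that table. A match is a description of the letters and not of a bound site.

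The 3 mESC libraries held 6442639 to 6907330 counts each, and the CPCC libraries 8468819 to 11436062. Values below are normalised counts (CPM), scaled by TMM to 1000000 per library, and 3 counts in 1 library, taken as the floor, equal between 0.298 and 0.463 CPM. Of the 12471 genes tested, 61.4% differed between the groups at an adjusted p under 0.05 by edgeR, with 31.7% higher and 29.7% lower in CPCCs. The summed CPM of 10 pluripotency markers ran from 6755 to 6867 in mESCs and from 173 to 447 in CPCCs, and all 10 were lower in CPCCs. The summed CPM of 10 cardiac markers ran from 13.1 to 17.8 in mESCs and was 172.2, 50.3 and 67.7 in CPCCs, without overlap. Of the 5 cardiac markers tested, *Tnnt2* (cardiac troponin T) was higher (log2 fold change 5.01) and the other 4 were not called. Of the 5 not tested, 4 were listed for CPCCs alone, and *Tbx5* was not in the CPCC table. *Nkx2-5*, 1 of those 4, was at 1.59, 0 and 0.917 CPM in the 3 CPCC libraries. Of the 10 cardiac markers, 8 had a mean of at least 1 CPM in CPCCs, against 4 in mESCs. The 10 mesenchyme or fibroblast markers summed to between 9150 and 13737 CPM in CPCCs against 12.7 to 20.0 in mESCs. In pairwise chi-square comparisons of counts, S04 stood farthest from the other CPCC libraries.

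Of the 7 FGF genes tested, 3 were higher in CPCCs (*Fgf15*, *Fgfr1* and *Fgfr2*), 1 was lower (*Fgf4*) and 3 did not pass the test (*Fgf10*, *Fgf17* and *Fgfr3*). The share called was near that of all genes, 61.4%. The CPM of the groups did not overlap for 5 of the 7, against 69.7% of all genes tested. The median log2 fold change of the 7 was 0.17, and that of all genes tested was 0.03.

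**Figure D1:**
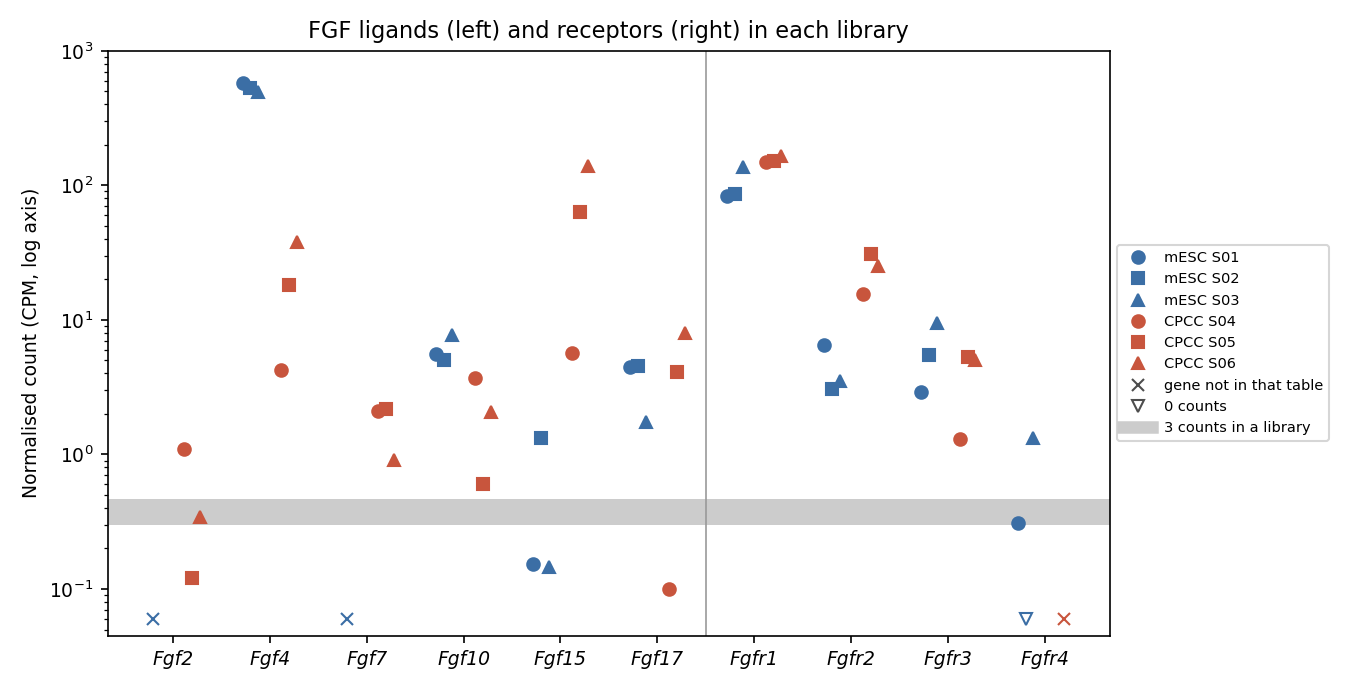
Normalised counts (CPM, log axis) of the 6 FGF ligands and 4 receptors, 1 symbol for each of the 3 mESC and 3 CPCC libraries; crosses mark a gene missing from that table, the open triangle a count of 0, and the grey band the CPM of 3 counts in a library. *Fgf4* sits between 494.2 and 573.7 CPM in mESCs and at 38.2 or less in CPCCs, and *Fgf15* goes from at most 1.32 CPM to between 5.67 and 139.

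*Fgf4* was the most abundant FGF transcript of the mESCs and fell in CPCCs. Among the mESC libraries its level was 573.7 (S01), 527.8 (S02) and 494.2 CPM (S03), and among the CPCC libraries 4.27 (S04), 18.2 (S05) and 38.2 CPM (S06). Values of 3 libraries are given in this order throughout. The groups did not overlap, and the mESC libraries lay within 1.16-fold of each other while those of CPCCs spread over 8.93-fold. The mean fell from 531.9 ± 39.9 CPM to 20.2 ± 17.0 CPM (SD, n = 3 each), and the log2 fold change was -4.72 (SE 0.63, adjusted p = 0.00023 by edgeR's quasi-likelihood test, Benjamini-Hochberg). Without S06 the log2 fold change was -5.58, and without S04 it was -4.22. In bulk RNA, fewer cells that express a gene and less of its RNA in each cell cannot be told apart.

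The genes of the 6 transcription factors listed as upstream of *Fgf4* in stem cells were all lower in CPCCs, against 29.7% of all genes tested. Their median log2 fold change was -4.14, beside 0.03 for all genes tested. *Zfp42* (REX1) had the largest change of the 6, -5.55 (SE 0.52), followed by *Esrrb* at -5.37 (SE 0.44) and *Nanog* at -5.17 (SE 0.55), with adjusted p = 2.97e-05, 1.46e-05 and 6.06e-05 by edgeR. Without S06 the changes of *Zfp42* and *Nanog* were -6.29 and -5.78. For the pair whose letters stand in the site above, the log2 fold change was -2.34 for *Sox2* (SE 0.41, adjusted p = 0.00106) and -3.11 for *Pou5f1* (SE 0.60, adjusted p = 0.00177 by edgeR; -3.88 without S06). All 6 are also among the pluripotency markers above, so the lists are not independent. Whether the fall of these factors lowered *Fgf4* was not tested.

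What remained of *Fgf4* in CPCCs differed between libraries in the same order as the pluripotency markers. *Fgf4* stood at 0.804%, 3.42% and 7.17% of its mESC mean in S04, S05 and S06, and the summed pluripotency markers stood at 2.55%, 4.88% and 6.58%. Of the 10 markers, 9 were lowest in S04 and 8 were highest in S06, with *Klf4* the exception at the low end. Residual stem-like cells as a source of this *Fgf4* RNA were not tested. The order S04 below S05 below S06 was found in 24.9% of all genes tested.

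**Figure D2:**
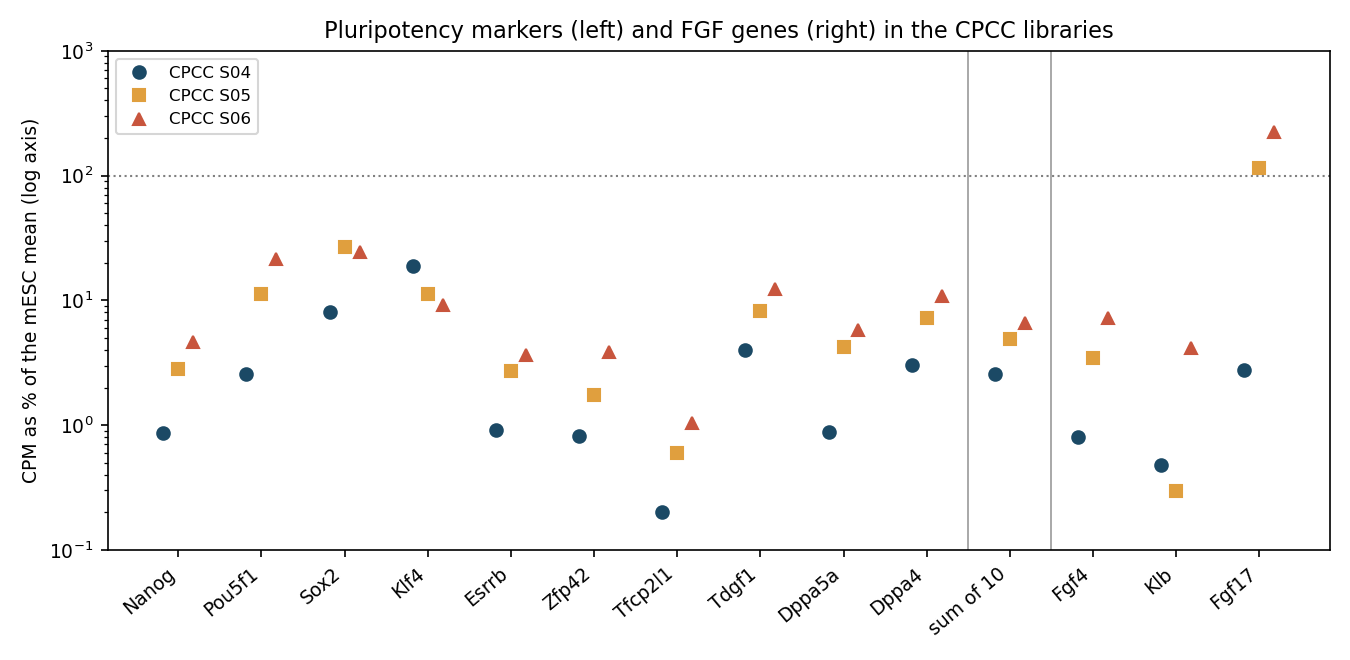
CPM in each CPCC library as a percentage of the mESC mean (log axis) for 10 pluripotency markers, their sum, *Fgf4*, *Klb* and *Fgf17*; the dotted line marks 100%. *Fgf4* lies between 0.804% and 7.17%, in the range of the markers, whereas *Fgf17* reaches 223% in S06.

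*Fgf15*, the mouse counterpart of human FGF19 and an endocrine FGF that signals through FGFR4 with the co-receptor beta-Klotho, rose from near the floor. The mESC libraries held 1, 9 and 1 counts of it (0.154, 1.32 and 0.146 CPM), against 57, 522 and 1214 counts (5.67, 63.3 and 139.1 CPM) for CPCCs. All CPCC libraries lay above all mESC libraries, but the CPCC libraries differed by 24.6-fold among themselves, a spread reached by 1.03% of genes tested. The fitted log2 change was 6.95 (SE 1.25, adjusted p = 0.00124 by edgeR), a change that 0.489% of genes tested reached or passed in size. It was 8.71 without S02, the mESC library with 9 of the 11 counts, 7.51 without S04, and 5.94 without S06, and the call held in each case.

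*Fgf15* lies 31286 bases from *Fgf4* on chromosome 7, both on the plus strand (144861386 to 144865246 for *Fgf4*, 144896532 to 144900952 for *Fgf15*, GRCm38). The neighbours moved in opposite directions. For every 100 counts of *Fgf4* there were 0.0269, 0.251 and 0.0296 counts of *Fgf15* in mESCs and 132.6, 348 and 364.6 in CPCCs. This ratio within a library does not depend on scaling between libraries, and its groups did not overlap (exact two-sided permutation test, p = 0.1, the smallest that 3 against 3 allows). Both genes were lowest in S04 and highest in S06 within CPCCs.

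The tables list 4 more genes within 250 kb of *Fgf4*, described here after their values were seen. *Fgf3*, another FGF ligand 18037 bases upstream, had 4.17, 3.24 and 2.78 CPM in mESCs and is missing from the CPCC table, which makes it at least 10.1-fold lower there. *Oraov1* rose by 2.35 on the log2 scale (SE 0.25, adjusted p = 6.54e-05), *Ano1*, a chloride channel, by 1.10 (SE 0.33, adjusted p = 0.0169), and *Ccnd1*, the gene of cyclin D1, by 0.66 (SE 0.20, adjusted p = 0.0164, all by edgeR). *Oraov1* and *Ccnd1* overlap at their ends on opposite strands. Of the 6 genes in the window, then, 4 rose, *Fgf4* fell, and *Fgf3* was found in mESCs alone. Among all genes tested, 31.7% were higher and 29.7% lower, and the window as a whole was not tested.

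The genes nearest to *Fgf15* in profile over the 6 libraries were *Mapk10*, the kinase JNK3, and *Fam181b*, at root mean square differences of 0.64 and 0.90 in centred log2 CPM. *Mapk10* had 4.67, 26.9 and 45.2 CPM in S04, S05 and S06. Among 8 neural markers, *Sox1* had 3.78, 23.4 and 50.9 CPM, *Pax6* 4.62, 14.2 and 18.2, *Pou3f2* 4.77, 17.3 and 32.0, and *Dcx* 9.34, 22.6 and 38.6 in the same 3 libraries. These 4 shared the library order of *Fgf15*, while *Nes*, *Tubb3* and *Olig2* were not highest in S06, *Neurog2* was in neither table, and the summed neural list, which *Nes* led, was nearly even at 574.7 to 606.6 CPM. Neural-type cells as a source of *Fgf15* RNA were not tested.

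*Fgf17*, a ligand of the FGF8 subfamily, did not pass the test, and its CPCC libraries straddled the mESC range. mESCs had 4.48, 4.56 and 1.76 CPM (29, 31 and 12 counts), and CPCCs had 0.0994, 4.12 and 8.02 CPM (1, 34 and 70 counts). The fitted log2 change was 0.17 (SE 0.97, adjusted p = 0.887 by edgeR), and its sign turned without S03 (-0.16) or without S06 (-0.79). The 80.7-fold spread among CPCCs was reached by 0.802% of genes tested. *Fgf8* itself, missing from the mESC table, had 0, 4.97 and 3.55 CPM in S04, S05 and S06, and is named after its values were seen.

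*Fgf10*, a mesenchymal ligand that signals to epithelia through the IIIb form of FGFR2, was lower in every CPCC library than in any mESC library without passing the test. mESCs had 5.56, 5.0 and 7.75 CPM, and CPCCs had 3.68, 0.606 and 2.06 CPM, where 0.606 CPM stands for 5 counts. The fitted log2 change was -1.51 (SE 0.61, adjusted p = 0.0573 by edgeR). The adjusted p was 0.0339 with DESeq2. By edgeR it was 0.0431 with genes missing from a table set to 3 counts, 0.011 without S04, and between 0.089 and 0.168 without any other library. Its log2 fold change was -2.16 without S04 and -1.08 without S05.

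*Fgf7* (keratinocyte growth factor, which binds the same FGFR2 form as FGF10) was listed for CPCCs alone, at 2.09, 2.18 and 0.917 CPM (21, 18 and 8 counts). Pooled over the 3 libraries this was 1.74 CPM (exact 95% Poisson interval 1.28 to 2.31, counting error only). The mean was 3.86-fold above the level that 3 counts per mESC library allow, or 3.35-fold without S05. *Fgf2* was listed for CPCCs alone too, at 1.09, 0.121 and 0.344 CPM, from 11, 1 and 3 counts. Its pooled 0.555 CPM (interval 0.311 to 0.915) was not separable from the 0.448 CPM that 3 counts in each mESC library would give. RNA of *Fgf2* was thus at the edge of detection in the cultures that received FGF2 protein.

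Set against transcript length, *Fgf4* made up most of the FGF ligand RNA in mESCs and a small part of it in CPCCs. Over the 19 FGF ligand genes listed in either table, *Fgf4* accounted for 94.2%, 94.3% and 91.7% of summed CPM per kb among mESCs, against 3.26%, 6.24% and 8.03% among CPCCs. *Fgf15* took 0.0424%, 0.396% and 0.0454% in mESCs and 7.23%, 36.3% and 49.0% in CPCCs. Ligands outside the 6 took 3.21% to 6.63% in mESCs and 85.1%, 53.9% and 39.3% in S04, S05 and S06. These shares and the sums include *Fgf11* to *Fgf14*, whose products stay inside the cell. *Fgf13* alone took 2.15%, 1.31% and 4.77% in mESCs and 26.5%, 10.6% and 6.14% in CPCCs. The summed level was 201.1, 184.8 and 177.9 CPM per kb in mESCs and 43.3, 96.3 and 156.8 in CPCCs, so all mESC libraries were higher in total.

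**Figure D3:**
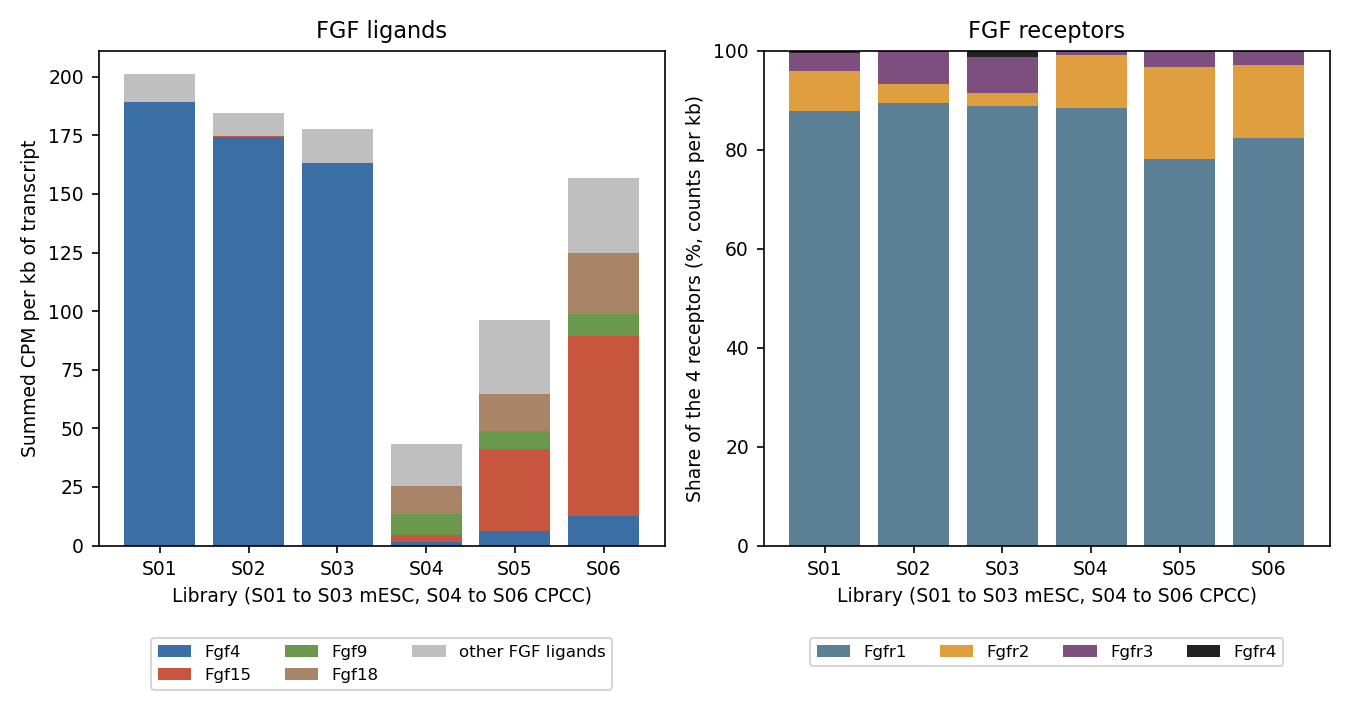
Left, summed CPM per kb of transcript of all FGF ligand genes listed, by library, with *Fgf4*, *Fgf15*, *Fgf9* and *Fgf18* in colour and the other ligands in grey; right, the share of each receptor (%) in the summed counts per kb of *Fgfr1* to *Fgfr4*. *Fgf4* fills 91.7% to 94.3% of the ligand bars in mESCs, and the *Fgfr2* share is larger in each CPCC library than in any mESC library.

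Among the other 16 ligand genes, 3 were tested, and *Fgf5* and *Fgf13* were higher in CPCCs while *Fgf11* was not called (log2 fold change -1.35, adjusted p = 0.0878 by edgeR). *Fgf5*, a ligand of the primed epiblast, went from 0.898 ± 0.270 to 8.71 ± 5.80 CPM (SD, n = 3 each), a log2 fold change of 3.25 (SE 0.67, adjusted p = 0.0025 by edgeR). *Fgf13*, whose product stays inside the cell like those of *Fgf11*, *Fgf12* and *Fgf14*, rose by 1.04 (SE 0.40, adjusted p = 0.048 by edgeR). The *Fgf13* call was lost without S01 (adjusted p = 0.14), S02 (0.115), S05 (0.0923) or S06 (0.0633), and its log2 fold change was 1.63 without S03. That of *Fgf5* was 2.65 without S06. Another 8 were listed for CPCCs alone, 2 (*Fgf3* and *Fgf23*) for mESCs alone, and *Fgf6*, *Fgf20* and *Fgf22* in neither table. *Fgf18*, with 13.2, 17.3 and 28.5 CPM in S04, S05 and S06, was at least 44.0-fold higher in CPCCs. *Fgf9*, which acts on FGFR3 and on IIIc receptor forms, had 14.0, 12.5 and 14.7 CPM and was at least 30.6-fold higher. Unlike *Fgf4* and *Fgf15*, *Fgf9* was nearly even over the 3 CPCC libraries.

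*Fgfr1*, the main FGF receptor of ESCs and of many mesenchymal cells, was the most abundant receptor of both groups and rose modestly in CPCCs. mESCs had 82.6, 85.8 and 137.2 CPM, and CPCCs had 148.7, 151.3 and 165.3 CPM. The groups did not overlap, although S03 lay closer to the CPCCs than to the other mESC libraries. The mean rose from 101.9 ± 30.6 to 155.1 ± 8.89 CPM (SD, n = 3 each), or 0.61 on the log2 scale (SE 0.22, adjusted p = 0.0361 by edgeR). The call did not hold without S01 (adjusted p = 0.147), S02 (0.134), S05 (0.0757) or S06 (0.0765), nor with genes missing from a table set to 3 counts (0.0555), and without S03 the log2 fold change was 0.88. Its CPCC libraries lay within 1.11-fold of each other, and 94.2% of genes tested spread at least as far.

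*Fgfr2* had the clearest change among the receptors. mESCs had 6.49, 3.09 and 3.51 CPM (42, 21 and 24 counts), and CPCCs had 15.5, 31.0 and 25.2 CPM (156, 256 and 220 counts). No library overlapped with the other group, and the lowest CPCC library held over 2-fold the CPM of the highest mESC library. The mean rose from 4.36 ± 1.85 to 23.9 ± 7.85 CPM (SD, n = 3 each), and the fitted log2 change was 2.45 (SE 0.39, adjusted p = 0.000656 by edgeR). Leaving out any single library gave log2 fold changes from 2.22 to 2.85, all past the threshold.

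*Fgfr3* did not pass the test. mESCs had 2.94, 5.44 and 9.51 CPM, and CPCCs had 1.29, 5.34 and 5.04 CPM, so the groups overlapped. The fitted log2 change was -0.62 (SE 0.63, adjusted p = 0.41 by edgeR). *Fgfr4*, the receptor for FGF15 in liver, had 2, 0 and 9 counts in mESCs and was not in the CPCC table. Its pooled mESC level of 0.547 CPM (exact 95% Poisson interval 0.273 to 0.979) was not separable from the 0.333 CPM that 3 counts in each CPCC library would give. S03 alone, with 9 counts (1.32 CPM), lay above its own floor of 0.439 CPM. *Fgfr4* was missing from the table of the cultures in which *Fgf15* was high.

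Within the 4 receptors, *Fgfr2* gained share from mESCs to CPCCs. *Fgfr1* gave 89.5%, 91.0% and 90.5% of the summed receptor counts in mESCs, against 89.8%, 80.6% and 84.5% in CPCCs. *Fgfr2* gave 7.02%, 3.28% and 2.32% in mESCs and 9.37%, 16.5% and 12.9% in CPCCs, a difference of 8.73 percentage points without overlap. *Fgfr3* gave 3.18%, 5.77% and 6.27% and then 0.781%, 2.84% and 2.58%, a difference of -3.01 points without overlap. Both differences had p = 0.1 by the exact two-sided permutation test, the smallest that 3 against 3 allows, and that of *Fgfr1* (-5.32 points, p = 0.2 by the exact permutation test) overlapped. Counts divided by transcript length gave differences of 9.87, -3.52 and -5.76 points.

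In CPM per kb, the order of levels in mESCs was *Fgf4* (175.5 ± 13.2), *Fgfr1* (20.3 ± 6.10), *Fgf17* (2.13 ± 0.945), *Fgf10* (1.48 ± 0.353), *Fgfr3* (1.40 ± 0.781), *Fgfr2* (1.01 ± 0.430), *Fgf15* (0.299 ± 0.374) and *Fgfr4* (0.163 ± 0.207; SD, n = 3). *Fgf4* and *Fgfr1* stood apart from their neighbours, and each later gene overlapped with the next. In CPCCs the order was *Fgf15* (38.3 ± 37.0), *Fgfr1* (30.9 ± 1.77), *Fgf4* (6.67 ± 5.62), *Fgfr2* (5.55 ± 1.82), *Fgf17* (2.42 ± 2.35), *Fgfr3* (0.916 ± 0.531), *Fgf7* (0.647 ± 0.264), *Fgf10* (0.514 ± 0.373) and *Fgf2* (0.087 ± 0.0853; SD, n = 3). *Fgf15* overlapped with *Fgfr1*, and *Fgfr1* was separate from *Fgf4*, below which neighbours overlapped throughout.

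Profiles most like those of the FGF genes were read from centred log2 CPM over the 6 libraries, by root mean square difference. *Fgf4* lay nearest to *Slc28a1*, a nucleoside transporter gene (0.11), and *Gstm3* (0.19). *Fgfr1* lay nearest to *Bbs10* (0.07) and *Nfatc3* (0.07), *Fgfr2* to *Plxna4* (0.18) and *Slc7a2* (0.19), and *Fgfr3* to *Slco4a1* (0.27). *Fgf10* lay nearest to *Zbtb8os* (0.23) and *Npl* (0.27), and *Fgf17* to *Rab25* (0.40) and *BC064078* (0.48). The 6 points of such a profile share libraries and, within a group, depth, so likeness is a description.

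Several genes whose products shape which FGF reaches which receptor changed as well. For each list below, the background is the 31.7% of all genes that were higher, the 29.7% that were lower, and the median log2 fold change of 0.03. Of 8 receptor-like and co-receptor genes, 7 were tested, with 5 higher, 1 lower and 1 not called, and a median log2 fold change of 1.94, or 3.02 when 10 counts were required in every library. *Klb*, the gene of beta-Klotho, the co-receptor of FGF15 in its endocrine role, was the one that fell. Its level was 97.2, 81.6 and 69.0 CPM for mESCs, against 0.398, 0.243 and 3.44 CPM for CPCCs (log2 fold change -5.92, SE 0.67, adjusted p = 8.61e-05 by edgeR; -7.91 without S06). mESCs thus held *Klb* with almost no *Fgf15*, and CPCCs held *Fgf15* with little *Klb*. *Fgfr4* was scarce in both groups, with 2, 0 and 9 counts in mESCs, and was missing from the CPCC table. *Cdh2* (N-cadherin, which can bind FGFR1) rose by 5.59 (SE 0.28, adjusted p = 1.82e-06) and *Flrt2*, a membrane protein of the FLRT family, by 5.09 (SE 0.31, adjusted p = 3.79e-06 by edgeR). *Fgfrl1*, an FGF receptor without a kinase domain, rose from 10.5 ± 2.94 to 30.3 ± 5.18 CPM (SD, n = 3 each; log2 fold change 1.53, SE 0.28, adjusted p = 0.00128 by edgeR); it is named outside the rule that picked the genes of each list, after its value was seen.

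Heparan sulfate, without which FGFs bind their receptors poorly, was represented by its core proteins and its enzymes. Of 12 core protein genes, 10 were tested and 8 were higher, none lower, with a median log2 fold change of 2.69. The largest rises were those of *Gpc6* (6.12, SE 0.28), *Sdc3* (4.76, SE 0.28) and *Gpc4* (3.97, SE 0.28), which encode glypicans and a syndecan, while *Sdc4* and *Agrn* were not called. Of 20 genes for synthesis and editing of the chains, 14 were tested, with 11 higher, 1 lower and 2 not called, at a median of 1.96. *Sulf1*, which removes 6-O-sulfates at the cell surface, rose by 4.03 (SE 0.37), *Hs3st1* by 3.25 (SE 0.45) and *Hs3st3b1* by 3.07 (SE 0.56). *Hs6st2*, a 6-O-sulfotransferase, was missing from the mESC table and had 772.3, 292.6 and 230.6 CPM in CPCCs, at least 964-fold higher, or 584-fold without S04. *Hpse* (heparanase), which cuts the chains, was the gene that fell.

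Carriers and release factors showed no shared direction. Of 6 genes, 5 were tested, with 1 higher, 1 lower and 3 not called, and a median log2 fold change of -0.04. *Fgfbp3*, a secreted FGF-binding protein, rose by 4.77 (SE 0.76, adjusted p = 0.000613 by edgeR; 4.10 without S06) with 7.75, 21.6 and 40.9 CPM in S04, S05 and S06. *S100a13*, a partner in the release of FGF1, fell by 2.07 (SE 0.39, adjusted p = 0.00156 by edgeR). *Syt1* was missing from the mESC table and was at least 29.3-fold higher in CPCCs.

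Below the receptors stand 24 adaptors and transducers. All 24 were tested, 13 were higher, 5 lower and 6 not called, and the median log2 fold change was 0.77. *Gab2*, an adaptor, rose by 4.18 (SE 0.45, adjusted p = 6.57e-05), *Plcg1*, the phospholipase that FGFRs activate, by 3.17 (SE 0.34, adjusted p = 6.55e-05), and *Frs2*, the docking protein bound to FGFRs, by 1.69 (SE 0.32, adjusted p = 0.00176, all by edgeR).

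Genes that ERK signalling is known to induce were mostly higher in CPCCs, the cultures whose medium was not described as holding a MEK inhibitor. Of 12 feedback inhibitors, 8 were tested, 6 were higher, none lower, and the median log2 fold change was 2.74. This median was 1.64 when 10 counts were required in every library. With genes missing from a table set to 0 and 3 counts it was 3.79 and 3.53. *Dusp6*, the ERK phosphatase, was at 2.32, 0 and 0.146 CPM for mESCs, against 130.9, 81.0 and 88.0 CPM for CPCCs (log2 fold change 6.94, SE 0.71, adjusted p = 5.08e-05 by edgeR; 10.1 without S01, which held nearly all mESC counts). *Spred1* rose by 3.80 (SE 0.22) and *Spry1* by 3.77 (SE 0.23). *Spry4*, *Spred3* and *Dusp5* were missing from the mESC table and were at least 58.3-fold, 38.4-fold and 12.4-fold higher. *Spry2* and *Spred2* were not called.

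Of 12 output genes, most of which encode transcription factors, 9 were tested, with 7 higher, 1 lower and 1 not called, and a median log2 fold change of 3.35. *Etv4* rose by 4.18 (SE 0.35), *Ier3*, an immediate early gene whose product is not a transcription factor, by 3.88 (SE 0.35) and *Fos* by 3.74 (SE 0.38). *Egr1*, *Fosl1* and *Egr2* were missing from the mESC table and were at least 178-fold, 14.0-fold and 13.1-fold higher. The value for *Fosl1* rested on S04, since it had 15.1, 2.66 and 1.14 CPM and the bound without S04 was 4.24-fold. *Etv5*, a close relative of *Etv4*, went the other way, from 178.1, 187.5 and 180.6 CPM to 50.0, 61.0 and 80.3 CPM (log2 fold change -1.51, SE 0.20, adjusted p = 0.000213 by edgeR); it is named after its value was seen. FGF2 and EGF in the CPCC medium, the MEK inhibitor in the mESC medium and the difference in cell type cannot be told apart as sources of these differences.

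**Figure D4:**
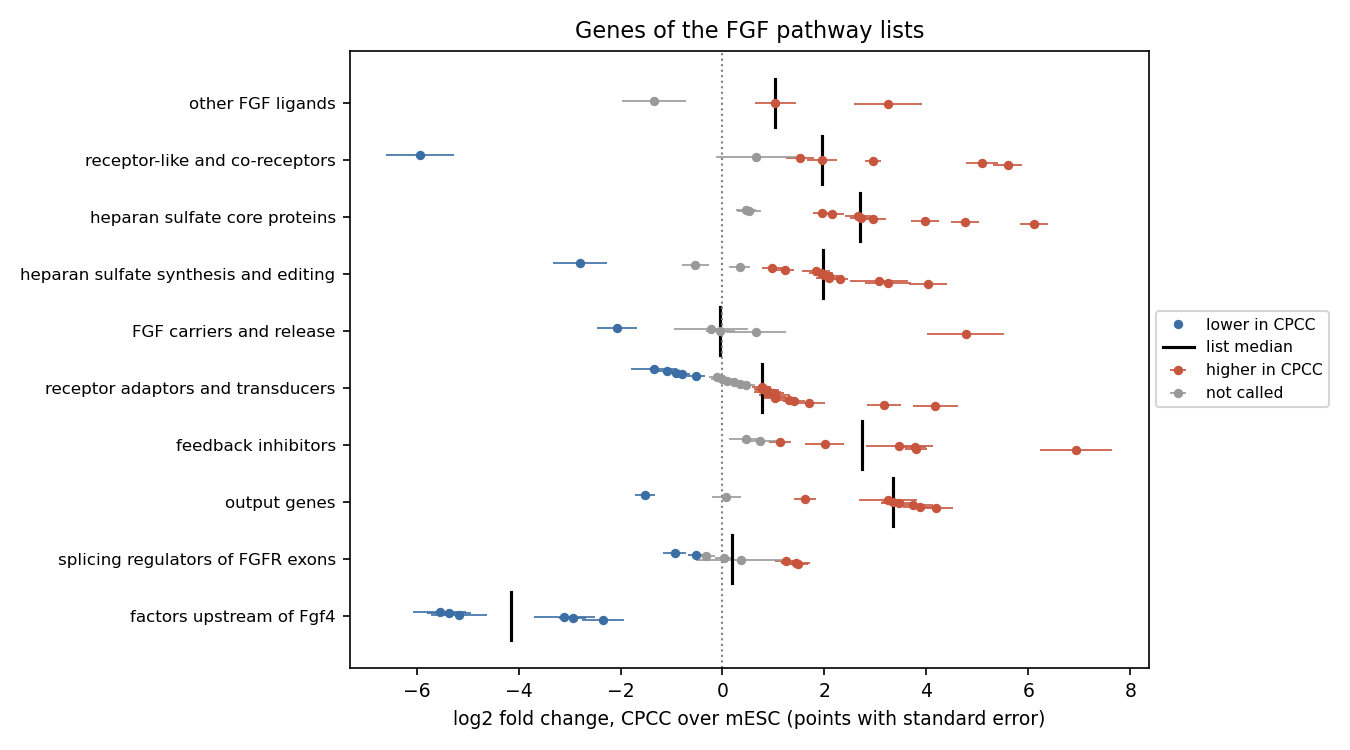
Log2 fold change (CPCC over mESC) with its standard error for each tested gene of the 10 FGF pathway lists, coloured by call, with the median of each list as a black bar. The medians run from -4.14 for the factors listed as upstream of *Fgf4* to 3.35 for the output genes.

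The receptor counts are sums over isoforms, so use of the alternative IIIb and IIIc exons, which sets the ligands that FGFR1 to FGFR3 bind, was not measured. Of 9 splicing regulators of these exons, 8 were tested, with 3 higher, 2 lower and 3 not called, and a median log2 fold change of 0.19. *Rbfox2* rose by 1.48 (SE 0.19), *Ptbp2* by 1.44 (SE 0.29) and *Tia1* by 1.24 (SE 0.22). *Esrp1*, an epithelial factor that favours the IIIb exon, was missing from the mESC table and had 2.78, 6.55 and 17.2 CPM in S04, S05 and S06, at least 19.7-fold higher, whereas *Esrp2* was not called. Without S06 the bound for *Esrp1* was 10.4-fold. Of 6 epithelial markers, 4 were higher in CPCCs (*Krt8*, *Krt18*, *Krt19* and *Cldn6*), *Cdh1* (E-cadherin) was lower and *Epcam* was not called. Their summed CPM overlapped between the groups, with 474.5 to 717.2 in mESCs against 712.4, 655.3 and 1180 in S04, S05 and S06, and the part of epithelial cells in the *Esrp1* level was not tested.

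Some FGF genes share their span with other genes. GENCODE vM21 places genes on the opposite strand over parts of *Fgf2*, *Fgf10*, *Fgf15*, *Fgfr1* and *Fgfr3*, and *Fam227b* over the whole span of *Fgf7*. On the same strand, *Gm43439* covers the whole span of *Fgf2*. None of these has a row in either table, and whether counting used the strand was not given in the sources used here, so reads from these genes cannot be told apart from those of the FGF genes. *Fgf4*, *Fgf17*, *Fgfr2* and *Fgfr4* have no such neighbour.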

How the data were processed

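PolyA-selected SMART-Seq v4 RNA-seq of 3 mESC and 3 CPCC libraries was analysed. The authors deposited estimated counts per gene in 1 table per cell type, without normalization. Between 17.9% and 21.5% of values per library were not whole, and no gene had under 10 counts over the 3 libraries of its table. The submitters' processing notes name STAR 2.7 and mm10. The aligner and counter of these tables are not given in the sources used here. Columns S01 to S06 carry no replicate numbers. Replicates differed by more than sampling noise.

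Counts were rounded, and the 13001 shared genes were filtered with filterByExpr (530 removed) and tested with edgeR 4.0.16 in R 4.3.3 (TMM, quasi-likelihood, Benjamini-Hochberg adjusted p under 0.05). The fits were tested on simulated data with known changes in a small part of the genes. Error rates where most genes differ, as here, were not checked. CPM uses TMM-scaled library sizes. A gene missing from a table gets a bound against 3 counts per library, and no test. Such a bound divides the mean CPM by that level and leaves out the error of the mean. Intervals and floors cover counting error only. Likeness of profiles used a prior count of 2. Lengths are the longest GENCODE vM21 transcript matched to RefSeq. DESeq2 1.42.0, other normalizations, filters and leaving out each library were alternatives.

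The 10 genes and all lists were chosen with earlier results of these data known. Named genes were the 10, the 3 largest called changes of each list, list genes missing from 1 table with a bound of at least 10-fold, and the 2 nearest profiles of each FGF gene; cell type markers and genes given as not called are named besides, and other exceptions are stated. 1 nearest profile is not reported here. The libraries came from 3 clones, and p-values cover the spread between these cultures.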

Additional observations from a re-analysis of the deposited data

How the results depend on the processing

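No paired analysis was possible because the table columns carry no replicate numbers. *Fgf4*, *Fgf15* and *Fgfr2* kept direction and call under every alternative that could test them; requiring 10 counts in every library left *Fgf10*, *Fgf15* and *Fgf17* untested. The number of FGF genes lower in CPCCs was 1, and became 2 through *Fgf10* with DESeq2, with missing genes at 3 counts and without S04 (range 1 to 2 when leaving out a library). The number higher was 3. It was 2 with missing genes at 3 counts, where *Fgfr1* was lost, and with 10 counts in every library, where *Fgf15* was untested, and ranged from 2 to 3 when leaving out a library. *Fgf17*, never called, turned to -0.16 without S03 and -0.79 without S06 (range -0.79 to 0.77 when leaving out a library). Of the other 16 ligands, 2 were called, with 1 when 10 counts were required in every library, 8 and 7 with missing genes at 0 and 3 counts, and 1 to 2 when leaving out a library, through the loss of *Fgf13*. Of the carriers and release factors 2 were called, and 1 with 10 counts in every library. The median of that list moved from -0.04 to -0.99 with 10 counts in every library. It turned to 0.33 and 0.24 with missing genes at 0 and 3 counts, 0.19 without S02, 0.60 without S03 and 0.17 without S04. Leaving out a library gave a range of -0.23 to 0.60. The median of the splicing regulators turned to -0.22 without S06 (range -0.22 to 0.43 when leaving out a library). The causes were not tested. With missing genes set to 0 or 3 counts more genes enter the test. The median of all genes tested moved from 0.03 to 0.17 with missing genes at 0 counts. Differences in receptor share kept their sign without each library, from -7.75 to -3.13 points for *Fgfr1*, 6.93 to 10.5 for *Fgfr2*, and -3.96 to -2.36 for *Fgfr3*. Depth limits *Fgf2*, *Fgf7* and *Fgfr4*, which have at most 21 counts in a library.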
